A study of Mus musculus with 8 samples.

Results

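The replication-dependent histone genes were examined in RNA sequencing data from mouse 4T1 cells in which ERK5 or its activating kinase MEK5 had been knocked down. Members were the protein-coding genes whose older symbol begins with Hist1h, Hist2h, Hist3h or Hist4h, without regard to their values, and 67 of the 24454 genes listed met this rule. They comprised 6 H1, 18 H2A, 18 H2B, 12 H3 and 13 H4 genes, and all are given by their present symbols, so that Hist1h3b is H3c2. 4T1 is a mammary carcinoma line that spreads readily when grown in mice. The cells of all 3 groups had been infected with lentivirus carrying a short hairpin RNA and had then been selected with puromycin. The shERK5 group (3 libraries) carried the hairpin shERK5-1 against ERK5, the product of Mapk7. The shMEK5 group (2 libraries) carried the hairpin shMEK5-2 against MEK5, the product of Map2k5, and the shCTRL group (3 libraries) a non-targeting hairpin. With 1 hairpin per target, loss of the target and other effects of that hairpin cannot be told apart. Whether replicate libraries stem from separate infections or separate cultures is not stated in the labels. The p-values therefore refer to the spread among these libraries, which could be technical.

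Replication-dependent histones package newly made DNA, and their genes are switched on as cells enter S phase and off as it ends. H2A, H2B, H3 and H4 form the nucleosome core, and H1 binds the linker DNA between cores. The messages of these genes are unusual in having no poly(A) tail: they end in a conserved stem-loop that is bound by the stem-loop binding protein, the product of Slbp, and the stem-loop governs their processing, translation and decay.

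Libraries were prepared from total RNA after ribosomal RNA depletion and without poly(A) selection, so messages without a tail were measured. Values are CPM, a gene's reads in each 1000000 that were assigned to any gene, and the libraries held between 41397315 and 53714288 assigned reads. Mapk7 had 6.59, 6.33 and 6.66 CPM in the shERK5 libraries, given in replicate order here and throughout, 20.4 and 18.7 CPM in the shMEK5 libraries, and 25.6, 28.6 and 26.1 CPM in the shCTRL libraries. Map2k5 had 36.1, 36.8 and 37.1 CPM in shERK5, 14.1 and 14.4 CPM in shMEK5, and 35.2, 37.0 and 36.8 CPM in shCTRL, and each target was lowest in the libraries labelled with its hairpin. All 6 epithelial markers were expressed, with summed levels of 1578 to 1629 CPM in shERK5, 1330 to 1394 CPM in shMEK5 and 1761 to 1949 CPM in shCTRL. The sum was mostly Krt8 and Krt18, which fell in both knockdowns. In the limma test described below, 4 of the 6 rose and 2 fell in shERK5, and 2 rose and 2 fell in shMEK5. Over all tested genes, 32.0% rose and 31.3% fell in shERK5, and 23.1% rose and 25.6% fell in shMEK5. Leukocyte markers summed to between 1.86 and 3.67 CPM in any library, endothelial markers to at most 0.362 CPM and adipocyte markers to at most 0.045 CPM. Fibroblast markers summed to 22.8 to 28.2 CPM in shERK5, 34.2 to 35.8 CPM in shMEK5 and 31.6 to 47.3 CPM in shCTRL, nearly all of it Pdgfra.

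The histone genes lie in a few dense clusters. In the mouse build GRCm38, 54 of the 67 are on chromosome 13, in blocks of 18 genes (chr13:21715711-21837530), 5 genes (chr13:22035122-22043658) and 31 genes (chr13:23531044-23934913). A further 10 are on chromosome 3 (chr3:96219885-96270192), 2 on chromosome 11 and 1 on chromosome 6. Many are near-identical copies. In 32 of the 67, fewer than 50% of the stretches of 50 bases in the transcript occurred in the transcripts of no other gene, and the way in which shared reads were assigned is not given here. H2ac18 and H2ac19, H2bc23 and H4bc24, and H3c14 and H3c15 held identical reads in all 8 libraries, so these 6 genes are 3 measurements. Each of the 6 still enters the counts, medians and sums below as a gene of its own, unless stated. H4bc24 is an H2B gene by its older symbol, Hist1h2br. H2ac23 and H2ac24 differed by at most 0.085% and H4c17 and H4c18 by at most 3.59% in any library. Values for single H2A and H3 genes are therefore less certain than those for H1 genes, of which the median member had 98.9% of its stretches to itself, against 27.0% for H2A, 53.1% for H2B, 38.0% for H3 and 60.5% for H4. These shares cover all transcripts given for a gene. Some run far past the stem-loop, by 4884 bases in H1f3, so the shares partly reflect transcript length.

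The stem-loop that sets these messages apart was searched for in the GENCODE transcripts as a stem of 6 bases beginning GG and a loop of 4 bases, and was found in 44 of the 67 members (4 H1, 11 H2A, 10 H2B, 8 H3 and 11 H4). The following are shown because they cover 4 of the 6 forms found, with the stem-loop in capitals and the flanking bases in lower case, 5′ to 3′ in the sense of the transcript.
H3c2: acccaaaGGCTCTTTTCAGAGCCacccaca
H2bc9: acccaaaGGCTCTTTTCAGAGCCactcaag
H3c3: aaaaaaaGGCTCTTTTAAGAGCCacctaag
H4c8: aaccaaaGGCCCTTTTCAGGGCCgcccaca
H4c2: tacaaaaGGTCCTTTTCAGGACCactcact
The form shared by H3c2 and H2bc9 was the commonest, with 26 members. The form of H4c8 was found in 7, that of H3c3 in 6 and that of H4c2 in 2, namely H4c2 and H4c11. A transcript model can stop short of the end of the message, so the absence of a match says only that these letters are not in that transcript.

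Taken as a sum, the 67 genes held a smaller share of the reads in both knockdowns than in the control. The summed share was 0.635%, 0.465% and 0.573% of gene-assigned reads in shERK5, 0.768% and 0.757% in shMEK5, and 1.16%, 1.51% and 1.25% in shCTRL. The highest shERK5 library lay below both shMEK5 libraries, and both lay below the lowest shCTRL library. The means were 0.558% ± 0.086 (SD, n = 3) in shERK5, 0.762% ± 0.008 (SD, n = 2) in shMEK5 and 1.31% ± 0.182 (SD, n = 3) in shCTRL. The shERK5 mean was thus 42.7% and the shMEK5 mean 58.4% of the shCTRL mean, and the shERK5 mean was 73.2% of the shMEK5 mean. Such a sum gets no test here, since the genes were chosen with results of these data known. A smaller fraction of cells in S phase and less histone RNA in each such cell cannot be told apart in bulk RNA.

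**Figure D1:**
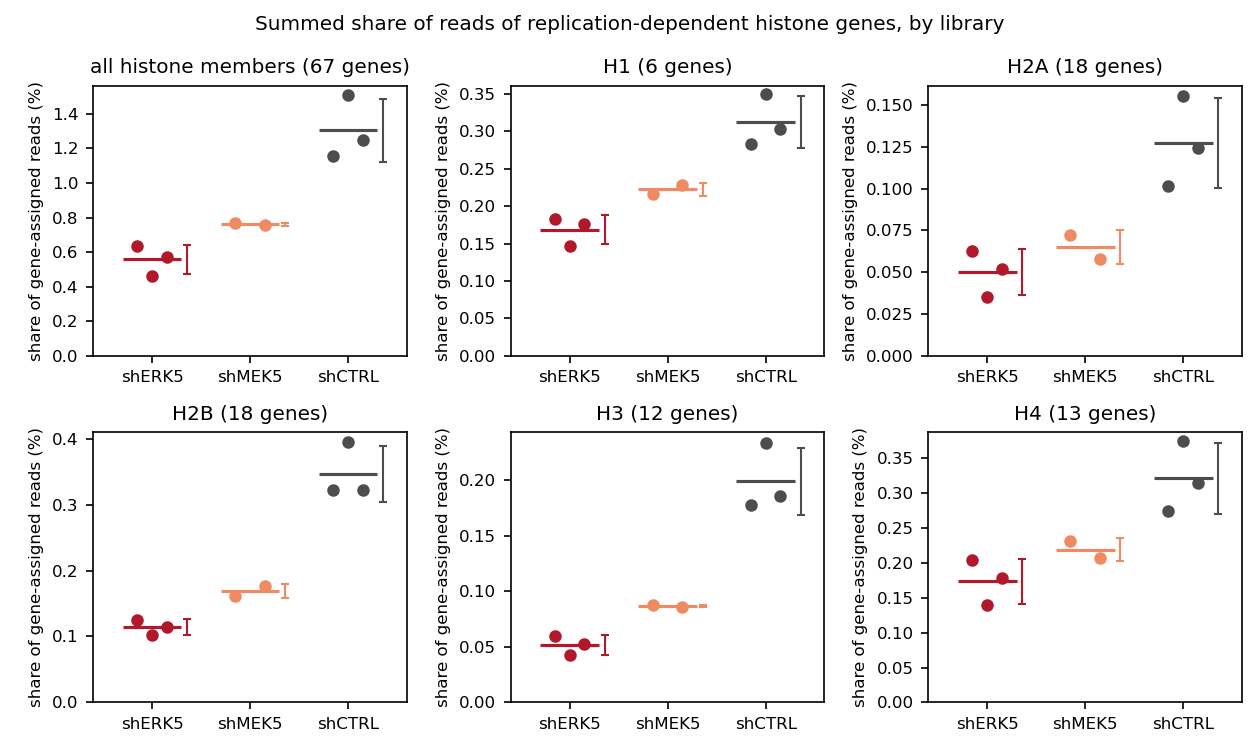
Share of gene-assigned reads (%, vertical axes from 0) held by all 67 histone genes and by each histone type, by group (shERK5, shMEK5, shCTRL). Points are libraries, horizontal lines group means and brackets the mean ± 1 SD. For all 67 genes the 3 shERK5 libraries lay between 0.465% and 0.635% and the 2 shMEK5 libraries at 0.757% and 0.768%, below the 3 shCTRL libraries at 1.16% to 1.51%.

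The 5 histone types differed in how far their summed share stood below the control. H3 genes together stood at 25.9% of the shCTRL mean in shERK5 and 43.6% in shMEK5, and H2B genes at 32.9% and 48.8%. H2A genes stood at 39.4% in shERK5 and 51.0% in shMEK5. The sums of H4 genes, at 54.0% in shERK5 and 68.2% in shMEK5, and of H1 genes, at 54.1% and 71.3%, were nearest to the control. In each of the 5 types the shERK5, shMEK5 and shCTRL libraries formed groups that did not overlap, apart from H2A, where shERK5 replicate 1 (0.063%) was above shMEK5 replicate 2 (0.058%). The make-up of the histone reads therefore shifted. H3 genes held 9.25% of them in shERK5, 11.4% in shMEK5 and 15.3% in shCTRL, and H2B genes 20.4% in shERK5, 22.2% in shMEK5 and 26.5% in shCTRL. H1 genes held 30.3% in shERK5, 29.2% in shMEK5 and 23.9% in shCTRL, and H4 genes 31.1% in shERK5, 28.7% in shMEK5 and 24.6% in shCTRL. The H2A share was 8.97% in shERK5, 8.51% in shMEK5 and 9.73% in shCTRL.

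Within a group, libraries differed in overall histone level, and most members moved together. Of the 64 members with enough reads to test, shERK5 replicate 2 was the lowest shERK5 library for 59 and shERK5 replicate 1 the highest for 57. In shMEK5, replicate 1 was above replicate 2 for 42. In shCTRL, replicate 2 was the highest library for 62 and replicate 1 the lowest for 43. The largest ratio of the highest to the lowest library of a group was 2.69 in shERK5, 1.98 in shMEK5 and 1.88 in shCTRL. Small RNAs without a poly(A) tail, such as Rpph1 (the RNA of RNase P) and Terc (the telomerase RNA), ranked the libraries of each group in the same order. The 11 of these that were listed summed to 14496, 13287 and 13801 CPM in shERK5, to 18201 and 14568 CPM in shMEK5, and to 12780, 15349 and 14969 CPM in shCTRL. Of the 9 tested, 0 passed the limma test below in shERK5 against shCTRL at an adjusted p under 0.05, with a median log2 fold change of 0.03. Over all tested genes, 63.3% passed. In shMEK5 against shCTRL 6 rose and 0 fell, with a median of 0.27, where 23.1% of all tested genes rose and 25.6% fell. The part that recovery of untailed RNA has in the histone values was not tested.

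**Figure D2:**
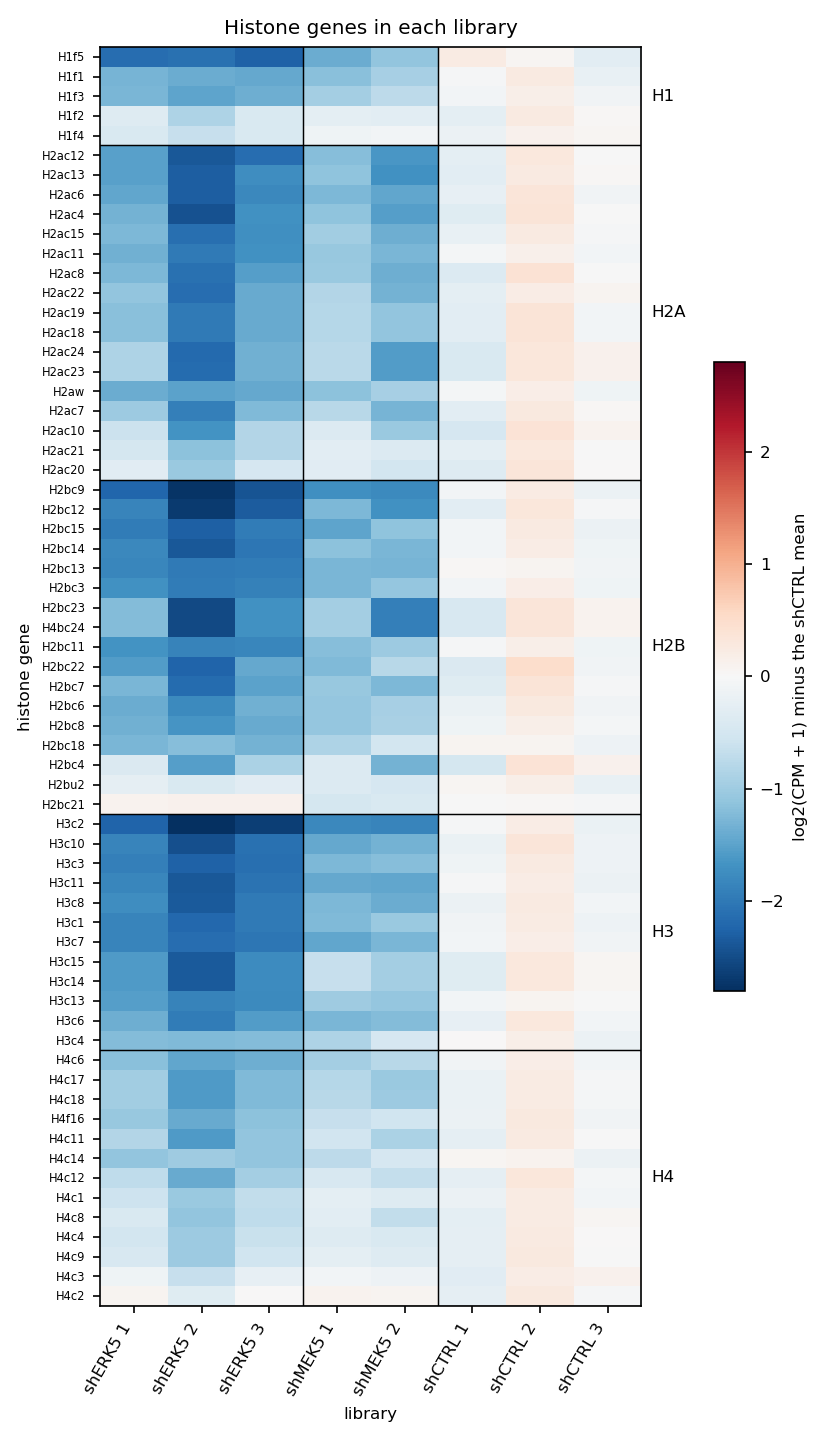
Level of each of the 64 tested histone genes (rows, by type) in each library (columns), as log2(CPM + 1) minus the mean of the shCTRL libraries. Blue is below and red above the shCTRL mean. Most rows are blue in the 3 shERK5 and the 2 shMEK5 libraries, the H3 rows most deeply, and shERK5 replicate 2 is the lowest shERK5 library for 59 rows.

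Single genes were then compared with limma on log2(CPM + 1), fitted over all 11623 genes with at least 1 CPM in at least 2 libraries, and a gene was called at a Benjamini-Hochberg adjusted p under 0.05. The log2 fold changes below are on this scale, which understates changes of genes with low values. This left out H1f6, H2ac1 and H2bc1, histones known from the testis, which had at most 0.832 CPM in any library. H1f1 passed the filter through its shCTRL libraries alone, so its difference from shCTRL follows from the filter. In shERK5 against shCTRL, 60 of the 64 tested histone genes fell and 0 rose, where 31.3% of all tested genes fell, 32.0% rose and 63.3% changed in either direction. Their median log2 fold change was -1.53, against 0.00 over all tested genes, and 51 had a log2 fold change of -1 or below. In shMEK5 against shCTRL, 49 of the 64 fell and 0 rose, where 25.6% of all tested genes fell, 23.1% rose and 48.7% changed in either direction. The median was -1.03, against -0.02 over all tested genes, and 33 had a log2 fold change of -1 or below. No histone gene was higher than shCTRL at an unadjusted p under 0.05 in either knockdown (0 of 64), and edgeR and DESeq2 on the recovered reads also called 0 higher. Without H1f1, 59 of 63 fell in shERK5 and 48 of 63 in shMEK5. With H1f1 kept and genes of identical reads counted once, 57 of 61 fell in shERK5. In shERK5 against shCTRL the groups did not overlap for 60 of the 64 genes, with shERK5 below for 59 and above for 1, where 67.9% of all tested genes did not overlap, 33.1% with shERK5 below and 34.8% with shERK5 above. In shMEK5 against shCTRL they did not overlap for 58, with shMEK5 below for all 58, where 68.7% of all tested genes did not overlap, 36.5% with shMEK5 below and 32.2% with shMEK5 above. Both comparisons use the same shCTRL libraries. Of the 64 genes, 48 fell in both knockdowns, 12 were called in shERK5 alone, 1 in shMEK5 alone and 3 in neither. H1f1 is 1 of the 48, and of the 51 and the 33 above. It also remains in the later counts by block, spread, stem-loop and own stretches.

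**Figure D3:**
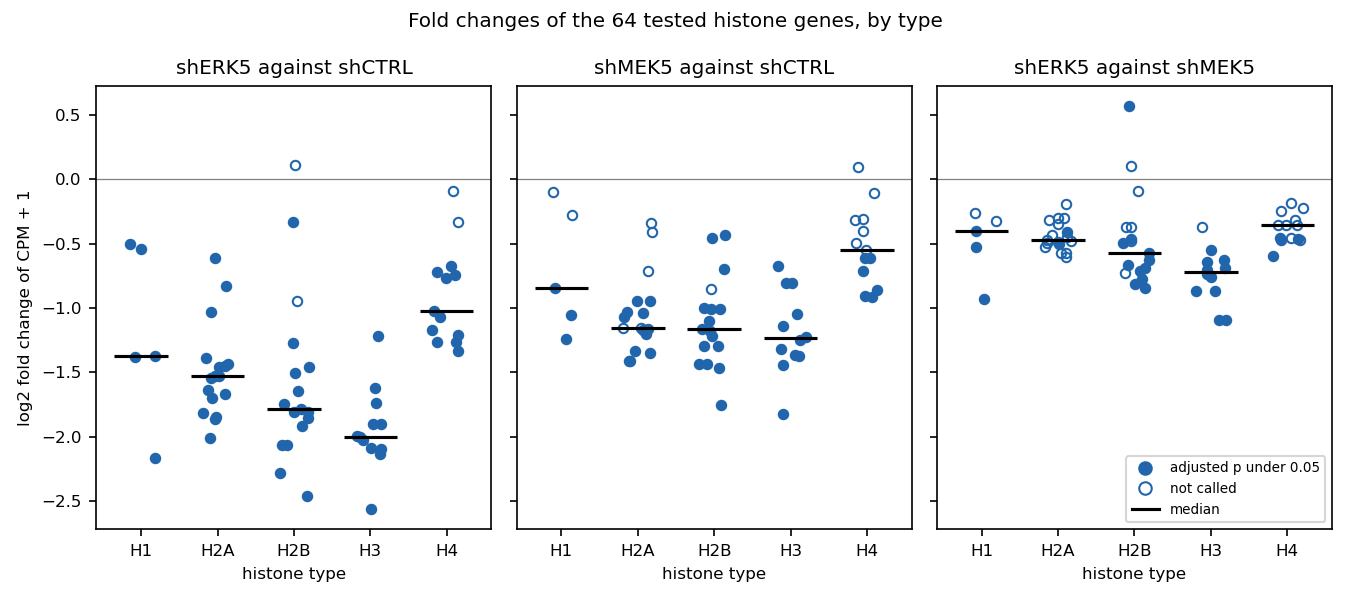
Log2 fold change of CPM + 1 (vertical axis) of the 64 tested histone genes, by type (horizontal axis), in shERK5 against shCTRL, shMEK5 against shCTRL and shERK5 against shMEK5. Filled points passed an adjusted p under 0.05, open points did not, and black lines are medians. H3 genes had the lowest medians, -2.002, -1.24 and -0.72, and those of H4 genes, -1.02, -0.55 and -0.36, lay above those of H2A, H2B and H3.

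H1 linker histone genes, which encode the protein that binds DNA between nucleosomes, were uneven in their response. Of 5 tested, 5 fell in shERK5 and 3 in shMEK5, with median log2 fold changes of -1.37 and -0.85. Without H1f1, whose fall follows from the filter, 4 of 4 fell in shERK5 and 2 of 4 in shMEK5, with medians of -0.96 and -0.56. Over all tested genes, 31.3% fell in shERK5 and 25.6% in shMEK5. H1f5 (chr13:21779832-21780625) had 57.8, 59.5 and 53.3 CPM in shERK5, 98.8 and 120 CPM in shMEK5, and 305, 270 and 210 CPM in shCTRL. The 3 groups did not overlap. Its log2 fold change was -2.17 in shERK5 (SE 0.13, limma adjusted p = 4.1e-06) and -1.24 in shMEK5 (SE 0.15, limma adjusted p = 0.000298), and all of its transcript's 50-base stretches were its own. H1f3 had 467, 407 and 443 CPM in shERK5, 584 and 682 CPM in shMEK5, and 1074, 1279 and 1065 CPM in shCTRL, again without overlap, and fell by 1.37 in shERK5 and by 0.85 in shMEK5 on the log2 scale (limma adjusted p = 2.21e-06 and 0.000139). H1f4 had 521, 445 and 521 CPM in shERK5, 649 and 663 CPM in shMEK5, and 621, 765 and 724 CPM in shCTRL. It fell in shERK5 (-0.50, SE 0.08, limma adjusted p = 0.000685), while its shMEK5 libraries lay within the range of shCTRL (-0.10, SE 0.09, limma adjusted p = 0.43). H1f2, with a mean of 695 CPM in shERK5, 825 CPM in shMEK5 and 1013 CPM in shCTRL, likewise fell in shERK5 (-0.54, SE 0.16, limma adjusted p = 0.0172) and did not pass in shMEK5 (-0.28, SE 0.18, limma adjusted p = 0.224). H1f1 was at 0.337 to 0.465 CPM in shERK5, 0.604 and 0.905 CPM in shMEK5 and 2.12 to 3.30 CPM in shCTRL.

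H2A genes, whose protein pairs with H2B in the nucleosome core, all passed the test in shERK5 (17 of 17, median -1.53), and 12 of 17 did in shMEK5 (median -1.16), a count that was 5 without shMEK5 replicate 2. All of these calls were lower, where 31.3% of all tested genes fell in shERK5 and 25.6% in shMEK5. H2aw, the H2A gene of the chromosome 11 cluster (chr11:58954685-58955192), had 55.6, 52.1 and 54.4 CPM in shERK5, 66.55 and 77.9 CPM in shMEK5, and 142, 168 and 136 CPM in shCTRL. The groups did not overlap and the replicates were tight. Its log2 fold change was -1.44 in shERK5 (SE 0.08, limma adjusted p = 5.96e-07) and -1.03 in shMEK5 (SE 0.09, limma adjusted p = 1.94e-05). H2ac12 had the lowest value in shERK5, -2.01 (SE 0.24, limma adjusted p = 0.000179), with 6.68, 3.31 and 4.03 CPM in shERK5, 8.72 and 6.16 CPM in shMEK5, and 17.2, 26.0 and 21.1 CPM in shCTRL. In shMEK5, H2ac12 and H2ac13 both stood at -1.41. H2ac4 fell by 1.81 in shERK5 and by 1.33 in shMEK5, and the shared reads of H2ac18 and H2ac19 fell by 1.53 in shERK5 and by 0.95 in shMEK5. The shMEK5 calls of H2ac4, H2ac18 and H2ac19 were lost without shMEK5 replicate 2, at -1.13 and -0.81. The weakest H2A value in shERK5 was that of H2ac20, with 157, 95.7 and 141 CPM in shERK5, 158 and 137 CPM in shMEK5, and 154, 248 and 199 CPM in shCTRL. Its groups overlapped, and its value of -0.61 was no longer called without shERK5 replicate 2 (-0.40) or 3 (-0.68), shMEK5 replicate 1 or 2 (-0.61 each), or shCTRL replicate 2 (-0.44) or 3 (-0.60). The H2A genes that did not pass in shMEK5 were H2ac20 (-0.41), H2ac21 (-0.34), H2ac10 (-0.71), and H2ac23 and H2ac24 (-1.16 each), both passing without shERK5 replicate 2.

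H2B genes, the partners of H2A, had a median log2 fold change of -1.79 in shERK5, where 15 of 17 fell, and of -1.16 in shMEK5, where 16 of 17 fell. Among all tested genes, 31.3% fell in shERK5 and 25.6% in shMEK5. H2bc9 (chr13:23542923-23543444) had 17.3, 11.7 and 15.1 CPM in shERK5, 25.0 and 23.8 CPM in shMEK5, and 80.6, 99.6 and 75.7 CPM in shCTRL. The 3 groups did not overlap, and shCTRL stood far above both knockdowns. Its log2 fold change was -2.46 in shERK5 (SE 0.14, limma adjusted p = 2.27e-06) and -1.76 in shMEK5 (SE 0.16, limma adjusted p = 5.23e-05), the lowest of the H2B genes in both. H2bc18 (chr3:96269700-96270192), the H2B gene with the most reads, had 344, 366 and 333 CPM in shERK5, 459 and 587 CPM in shMEK5, and 890, 881 and 759 CPM in shCTRL. Its groups did not overlap, and it fell by 1.27 in shERK5 and by 0.70 in shMEK5 (limma adjusted p = 6.09e-06 and 0.000733). H2bc8, H2bc3 and H2bc11, the next in reads, had log2 fold changes of -1.46, -1.85 and -1.79 in shERK5 and of -0.998, -1.18 and -1.10 in shMEK5, and all passed. The reads shared by H2bc23 and H4bc24 ranged from 21.8 to 55.7 CPM in shERK5, 34.0 to 66.6 CPM in shMEK5 and 96.0 to 165 CPM in shCTRL. They fell by 1.81 in shERK5 and by 1.44 in shMEK5, and the shMEK5 call was lost without shMEK5 replicate 2 (-0.96), without shERK5 replicate 1 or 3 (-1.44 each), and without shCTRL replicate 2 (-1.27) or 3 (-1.39). H2bu2, the H2B gene beside H2aw on chromosome 11, had 2.57 to 3.07 CPM in shERK5, 2.46 and 2.68 CPM in shMEK5 and 3.20 to 4.37 CPM in shCTRL, and values of -0.33 in shERK5 and -0.44 in shMEK5. Both passed, but the shERK5 call was lost without shERK5 replicate 2 (-0.28) or shCTRL replicate 2 (-0.26), and the shMEK5 call without shMEK5 replicate 2 (-0.39). H2bc22 passed in shMEK5 at -1.01, and that call was lost without shERK5 replicate 1 (-1.01), shMEK5 replicate 1 (-0.78) or 2 (-1.24), or shCTRL replicate 3 (-1.06).

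Exceptions among the H2B genes were H2bc21 and H2bc4. H2bc21 (chr3:96221072-96223738) is known in mouse olfactory neurons for a product that is made outside S phase. It had 10.6, 10.8 and 10.8 CPM in shERK5, 6.72 and 7.13 CPM in shMEK5, and 9.78, 10.1 and 9.70 CPM in shCTRL. The shERK5 libraries lay above all others and the shMEK5 libraries below all others. It was 0.11 in shERK5 against shCTRL on the log2 scale (SE 0.06, limma adjusted p = 0.148) and fell in shMEK5 (-0.46, SE 0.07, limma adjusted p = 0.000464). It was the only tested histone gene called in shMEK5 and not in shERK5. Its transcript is long, all of its 50-base stretches were its own, and the stem-loop was not found in it. H2bc4 had 49.7, 22.1 and 35.7 CPM in shERK5, 50.9 and 25.8 CPM in shMEK5, and 46.9, 86.5 and 71.8 CPM in shCTRL. The groups overlapped, and neither -0.94 in shERK5 (SE 0.38, limma adjusted p = 0.064) nor -0.85 in shMEK5 (SE 0.43, limma adjusted p = 0.139) passed. Without shCTRL replicate 1 the shERK5 value of H2bc4 was -1.19 and passed.

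**Figure D4:**
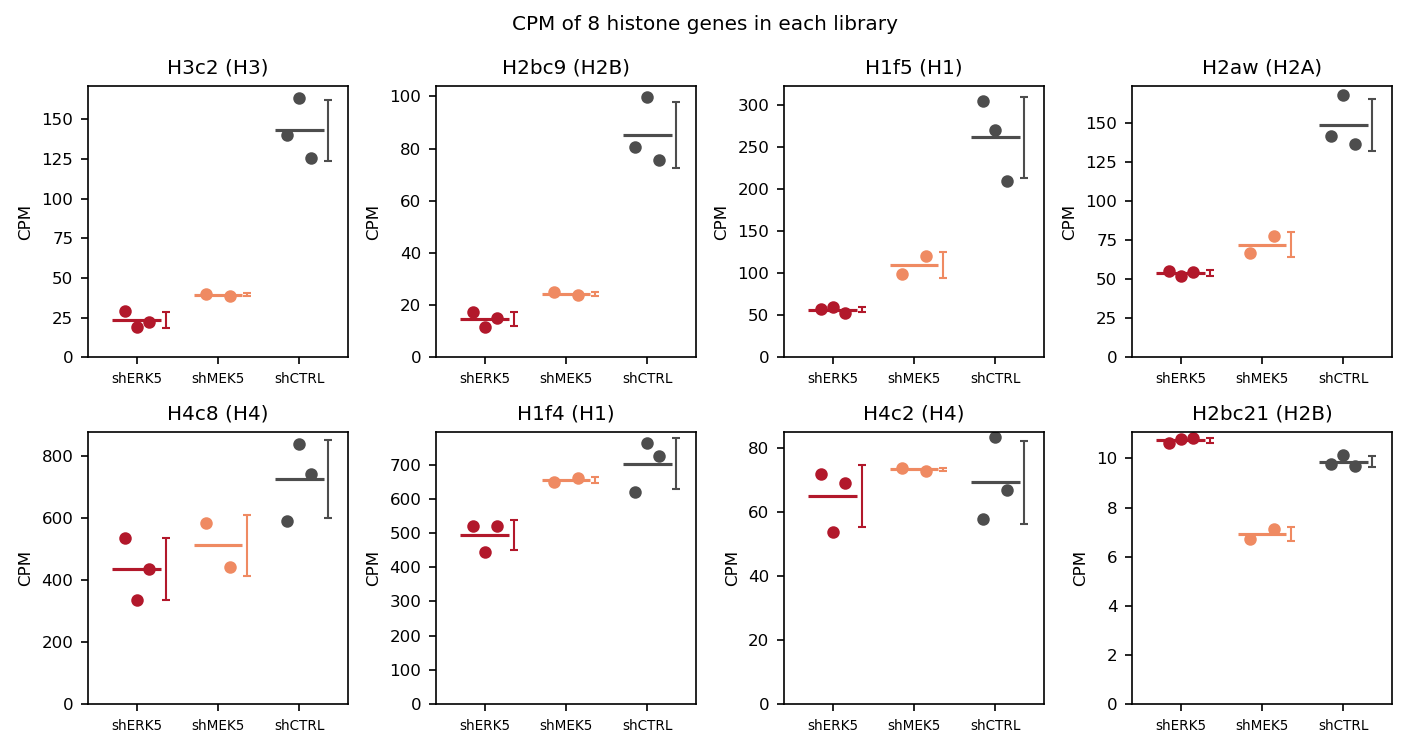
CPM (vertical axes, each from 0) of 8 histone genes in each library of shERK5, shMEK5 and shCTRL. Points are libraries, horizontal lines group means and brackets the mean ± 1 SD. H3c2, H2bc9, H1f5 and H2aw show 3 groups that do not overlap, with shERK5 lowest, while H4c2 shows overlapping groups and H2bc21 is lowest in shMEK5 (6.72 and 7.13 CPM).

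H3 genes, which encode a core histone with a heavily modified tail, were all called in both knockdowns. All 12 fell in shERK5, with log2 fold changes from -2.56 to -1.22 and a median of -2.002, and all 12 fell in shMEK5, from -1.82 to -0.67 with a median of -1.24. Of all tested genes, 31.3% fell in shERK5 and 25.6% in shMEK5. H3c2 (chr13:23752345-23752840) had 29.2, 19.4 and 22.2 CPM in shERK5, 40.2 and 38.7 CPM in shMEK5, and 140, 164 and 125 CPM in shCTRL. The groups did not overlap, and the highest shERK5 library was below the lowest shMEK5 library. Its log2 fold change was -2.56 in shERK5 (SE 0.15, limma adjusted p = 2.74e-06) and -1.82 in shMEK5 (SE 0.16, limma adjusted p = 6.12e-05), the lowest of all tested histone genes in both. Of its transcript's 50-base stretches, 39.6% were its own. H3c7, the H3 gene with the most reads, had 84.2, 68.7 and 73.6 CPM in shERK5, 111 and 124 CPM in shMEK5, and 288, 344 and 283 CPM in shCTRL, without overlap. It fell by 2.00 in shERK5 and by 1.37 in shMEK5 (limma adjusted p = 3.71e-07 and 1.36e-05). H3c4 stood at the weak end, with 44.3, 43.4 and 44.2 CPM in shERK5, 56.4 and 74.5 CPM in shMEK5, and 105, 116 and 91.8 CPM in shCTRL, and fell by 1.22 in shERK5 and by 0.67 in shMEK5. The reads shared by H3c14 and H3c15 were 64.3, 37.1 and 56.4 CPM in shERK5, 123 and 99.5 CPM in shMEK5, and 152, 240 and 200 CPM in shCTRL. They fell by 1.90 in shERK5 and by 0.80 in shMEK5, and the shMEK5 call was lost without shERK5 replicate 1 (-0.80), shMEK5 replicate 1 (-0.96) or 2 (-0.65), or shCTRL replicate 2 (-0.65) or 3 (-0.78). H3c6 fell by 1.62 in shERK5 and by 1.25 in shMEK5.

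H4 genes, whose protein pairs with H3, had median changes of -1.02 in shERK5 and -0.55 in shMEK5, smaller than those of H2A, H2B and H3 genes. In shERK5 11 of 13 fell, and in shMEK5 6 of 13 did, with 0 at a log2 fold change of -1 or below in shMEK5. The shares of all tested genes that fell were 31.3% in shERK5 and 25.6% in shMEK5. H4c6 had 92.7, 75.9 and 81.6 CPM in shERK5, 108 and 124 CPM in shMEK5, and 197, 240 and 198 CPM in shCTRL. The groups did not overlap, and it fell by 1.33 in shERK5 and by 0.86 in shMEK5 (limma adjusted p = 5.24e-06 and 0.000252). H4c17 and H4c18, whose read counts differed by at most 3.59% in any library, fell in shERK5 (-1.27 and -1.26) and in shMEK5 (-0.91 each). H4f16, the histone gene of chromosome 6 (chr6:136803993-136804431), had 115, 88.9 and 107 CPM in shERK5, 152 and 162 CPM in shMEK5, and 214, 290 and 222 CPM in shCTRL. It fell by 1.21 in shERK5 and by 0.61 in shMEK5, and the shMEK5 call was lost without shMEK5 replicate 1 (-0.57). H4c11 passed in shMEK5 at -0.71, and that call was lost without shMEK5 replicate 1 (-0.90) or 2 (-0.53) or shCTRL replicate 2 (-0.59) or 3 (-0.72).

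The remaining H4 genes included those with the most reads. Per kilobase of gene span, H4c8 had the highest level of any histone gene with a span under 1 kb, 1293 CPM per kilobase averaged over the 8 libraries, followed by H4c4 and H2bc18 with 1171 CPM per kilobase each. H4c8 had 536, 334 and 435 CPM in shERK5, 581 and 442 CPM in shMEK5, and 591, 839 and 742 CPM in shCTRL. It fell in shERK5 (-0.75, SE 0.20, limma adjusted p = 0.0119) and did not pass in shMEK5 (-0.50, SE 0.22, limma adjusted p = 0.1). H4c4 fell in shERK5 by 0.72, and its shMEK5 value of -0.40 did not pass with all libraries but did without shERK5 replicate 2 (-0.40) or shCTRL replicate 1 (-0.53). H4c12, H4c1 and H4c9 fell in shERK5 (-1.02, -0.77 and -0.67), and their shMEK5 values of -0.55, -0.31 and -0.32 did not pass, those of H4c12 and H4c1 passing without shERK5 replicate 2. H4c2 (chr13:23756937-23757386) had 71.9, 53.8 and 69.0 CPM in shERK5, 73.8 and 73.0 CPM in shMEK5, and 57.8, 83.5 and 67.0 CPM in shCTRL. The groups overlapped, and neither -0.09 in shERK5 (SE 0.14, limma adjusted p = 0.608) nor 0.09 in shMEK5 (SE 0.16, limma adjusted p = 0.654) passed. The sign of H4c2 turned without shERK5 replicate 2 (0.037) or shCTRL replicate 2 (0.049) in shERK5, and without shCTRL replicate 1 (-0.027) in shMEK5. H4c3 had 118, 80.9 and 109 CPM in shERK5, 122 and 116 CPM in shMEK5, and 102, 148 and 138 CPM in shCTRL, and passed in neither knockdown (-0.33 in shERK5 and -0.11 in shMEK5). Without shCTRL replicate 1 its shERK5 value was -0.49 and passed.

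Some histone genes varied little between the libraries of a group, and these were looked at separately after their values were seen. In 14 of the 64, the highest library was at most 1.3 times the lowest in every group, among them H1f3, H2aw, H2bc18, H2bc3, H3c7, H3c13, H4c6 and H4c14. Of these 14, 13 fell in shERK5 and 13 in shMEK5, with median log2 fold changes of -1.45 and -1.01. Of the other 50, 47 fell in shERK5 and 36 in shMEK5, with medians of -1.54 and -1.05. Over all tested genes, 31.3% fell in shERK5 and 25.6% in shMEK5. A low spread within groups by itself makes a call more likely, so the counts of these sets are a description only.

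Between the knockdowns, shERK5 was lower than shMEK5 for many histone genes. The shERK5 mean was below the shMEK5 mean for 62 of the 64 genes. In the test of shERK5 against shMEK5, 30 fell and 1 rose, where 17.4% of all tested genes fell, 22.0% rose and 39.4% changed in either direction. The median log2 fold change was -0.48, against 0.02 over all tested genes, and the groups did not overlap for 43 of the 64, with shERK5 below for 42 and above for 1, where 61.0% of all tested genes did not overlap, 26.9% with shERK5 below and 34.1% with shERK5 above. Small RNAs without a poly(A) tail were compared in the same way: 5 of the 9 tested fell, 0 rose and their median was -0.32 on the log2 scale. Their part in the histone difference was not tested. The count of 30 rested on both shMEK5 libraries: it was 18 without shMEK5 replicate 1 and 18 without shMEK5 replicate 2. By type, 11 of 12 H3 genes, 10 of 17 H2B, 3 of 5 H1, 4 of 13 H4 and 2 of 17 H2A genes were lower in shERK5. Without shMEK5 replicate 1 these counts were 5 for H3, 2 for H4 and 1 for H2A, and without shMEK5 replicate 2 they were 1 for H4 and 0 for H2A. The H2A count was also 6 without shERK5 replicate 1, and 1 without shERK5 replicate 2 or 3 or shCTRL replicate 1 or 3. Of the 48 genes that fell in both knockdowns, 28 were also lower in shERK5 than in shMEK5. H1f5 (-0.93, SE 0.15, limma adjusted p = 0.00174), H2bc11 (-0.69, SE 0.09, limma adjusted p = 0.000346) and H3c7 (-0.63, SE 0.11, limma adjusted p = 0.00151) were among them. H2bc9 stood at -0.71 and H3c2 at -0.74, and both calls were lost without shMEK5 replicate 1 (-0.68 and -0.71). The reads of H3c14 and H3c15 had the largest difference, -1.10, and were at -0.94 and not called without shMEK5 replicate 1. H3c6 was the H3 gene that did not pass, at -0.38. H2bc21 was the gene that was higher in shERK5 (0.57, SE 0.07, limma adjusted p = 0.000155).

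Position along the chromosomes was also considered. Of the 18 genes in the first block of chromosome 13, 18 fell in shERK5 and 15 in shMEK5, with median log2 fold changes of -1.78 and -1.20, and the shMEK5 count was 9 without shMEK5 replicate 2. In the block of 5 genes, 5 fell in shERK5 and 4 in shMEK5 (medians -1.79 and -1.17). In the third block, which holds H3c2, H2bc9 and H4c2, 25 of 28 tested genes fell in shERK5 and 19 in shMEK5 (medians -1.43 and -1.02). Both counts include H1f1, whose fall follows from the filter. In the chromosome 3 cluster 9 of 10 fell in shERK5 and 8 of 10 in shMEK5 (medians -1.40 and -0.75), with 4 in shMEK5 without shMEK5 replicate 2. Genes that fell were thus found in every block, where 31.3% of all tested genes fell in shERK5 and 25.6% in shMEK5. H4c2 lies between H3c2 and H4c1, whose log2 fold changes in shERK5 were -2.56 and -0.77, and H3c1, beyond H4c1, was at -2.01.

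Promoters were compared because the members fell together. RefSeq sequences of GRCm38.p6 from 250 bases before to 50 bases after the start were given for 62 of the 67 members and 27025 genes in all. H2bc4, H4c14, H3c7, H3c1 and H2bc21 had no entry. Both strands were searched for the CCAAT box (CCAAT), the TATA box (TATAAA) and the octamer (ATTTGCAT), none of which contains another. CCAAT or its complement ATTGG was found in 53 of 62 members (85.5%), against 37.9% of all genes. It was in all promoters given for H1 (6), H2A (18), H2B (16) and H3 (10), but in 3 of 12 for H4, namely those of H4c1, H4c3 and H4c4. TATAAA was found in 35 members (56.5%), against 14.2% of all genes. The octamer, known as a site of H2B promoters bound by the factor Pou2f1, was found in 13 members (20.97%), 7 H2A and 6 H2B, against 1.75% of all genes. A match is a description of the sequence and not a measured binding site. The 50 tested genes with CCAAT had median log2 fold changes of -1.66 in shERK5 and -1.13 in shMEK5, and the 9 without it, all H4 genes, -1.17 and -0.61. Those with TATAAA (33) had -1.46 in shERK5 and -1.01 in shMEK5, and those without (26) -1.64 and -1.07. The 11 with the octamer had -1.81 in shERK5 and -1.20 in shMEK5, and the 48 without it -1.51 and -1.01. Among the 12 H4 genes, the 3 with CCAAT had median log2 fold changes of -0.72 in shERK5 and -0.31 in shMEK5, against -1.17 and -0.61 in the 9 without it. The 8 H4 genes with TATAAA had -1.10 in shERK5 and -0.63 in shMEK5, against -0.54 and -0.30 in the other 4.

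The promoters of H3c2 and H2bc9, which fell most among H3 and H2B genes, and of H4c2, which did not pass in either knockdown, are given 5′ to 3′ in the direction of the gene, with matches to the 3 motifs on either strand in capitals. They lie at chr13:23752095-23752394 (plus strand), chr13:23543395-23543694 (minus strand) and chr13:23756687-23756986 (plus strand).
H3c2: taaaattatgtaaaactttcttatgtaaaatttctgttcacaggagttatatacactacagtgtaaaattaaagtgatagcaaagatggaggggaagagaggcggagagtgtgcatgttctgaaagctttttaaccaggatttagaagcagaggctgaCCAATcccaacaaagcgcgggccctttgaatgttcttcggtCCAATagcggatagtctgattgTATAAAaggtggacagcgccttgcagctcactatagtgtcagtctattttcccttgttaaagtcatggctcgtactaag
H2bc9: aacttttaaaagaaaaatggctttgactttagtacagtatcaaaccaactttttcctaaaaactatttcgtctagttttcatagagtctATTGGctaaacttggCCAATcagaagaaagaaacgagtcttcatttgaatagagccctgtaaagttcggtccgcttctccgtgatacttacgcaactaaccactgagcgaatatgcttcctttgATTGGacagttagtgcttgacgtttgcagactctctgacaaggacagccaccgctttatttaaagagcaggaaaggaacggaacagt
H4c2: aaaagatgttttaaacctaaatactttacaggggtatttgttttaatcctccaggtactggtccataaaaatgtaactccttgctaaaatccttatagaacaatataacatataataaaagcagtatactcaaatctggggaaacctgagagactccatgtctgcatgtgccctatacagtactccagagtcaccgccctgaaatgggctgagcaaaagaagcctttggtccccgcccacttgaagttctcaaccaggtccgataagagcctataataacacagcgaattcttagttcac
H3c2 had CCAAT 92 and 51 bases and TATAAA 29 bases before its start. H2bc9 had CCAAT on the gene's strand 146 bases and on the other strand 161 and 37 bases before its start. None of the 3 motifs was matched in the window of H4c2. The same held for H4c8 and H4f16, which both fell in shERK5, while H4c3, with CCAAT, passed in neither knockdown.

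Genes with and without a stem-loop match were also set side by side. The 43 tested genes in whose transcript it was found had median log2 fold changes of -1.46 in shERK5 and -0.998 in shMEK5, and 41 and 33 of them fell. The 21 in which it was not found had medians of -1.73 and -1.17, with 19 and 16 falling. H1f1, whose fall follows from the filter, is among these 21, and below among the 32 with at least 50%. H4c2 and H4c11, which share 1 form of the stem-loop, had log2 fold changes of -0.09 and -1.17 in shERK5. The 32 tested genes with at least 50% of 50-base stretches to themselves had medians of -1.28 in shERK5 and -0.85 in shMEK5, with 29 and 22 falling, and the 32 below 50% had -1.72 and -1.16, with 31 and 27 falling. These medians are descriptions and were given no test. Beside the counts, 31.3% of all tested genes fell in shERK5 and 25.6% in shMEK5.

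Genes that make or handle histone messages were set beside the histone genes. Of 30 such genes, 16 fell and 6 rose in shERK5 (median -0.17), and 6 fell and 6 rose in shMEK5 (median -0.07). Over all tested genes, 31.3% fell and 32.0% rose in shERK5, and 25.6% fell and 23.1% rose in shMEK5. Slbp had 54.4, 50.5 and 53.7 CPM in shERK5, 62.3 and 59.7 CPM in shMEK5, and 63.6, 63.3 and 65.7 CPM in shCTRL. It fell in shERK5 (-0.28, SE 0.05, limma adjusted p = 0.000626), and its shMEK5 value of -0.07 did not pass (limma adjusted p = 0.296). Npat, the activator of histone gene transcription, fell in shERK5 (-0.36, SE 0.10, limma adjusted p = 0.0139) and was at -0.14 in shMEK5 (limma adjusted p = 0.34). Casp8ap2, a component of the histone locus body, fell in shERK5 (-0.60, SE 0.20, limma adjusted p = 0.028) and was at -0.16 in shMEK5 (limma adjusted p = 0.581). Lsm10, a protein of the U7 particle that cuts histone pre-mRNA, fell by 0.78 in shERK5 and by 0.50 in shMEK5, and Srrt, which acts with the nuclear cap-binding complex, by 1.01 and 0.89. Ccne1, the cyclin E1 gene, rose by 0.39 in shERK5 and 0.81 in shMEK5.

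Genes of DNA replication, which are active in the same phase of the cell cycle, moved in both directions. Of 40, 21 fell and 9 rose in shERK5, with a median log2 fold change of -0.20, and 7 fell and 16 rose in shMEK5, with a median of 0.11. The shares over all tested genes were 31.3% falling and 32.0% rising in shERK5, and 25.6% falling and 23.1% rising in shMEK5. Cdc6, which helps load the replicative helicase, had 63.5, 74.6 and 77.1 CPM in shERK5, 103 and 110 CPM in shMEK5, and 50.01, 48.9 and 49.9 CPM in shCTRL. It rose by 0.52 in shERK5 and by 1.08 in shMEK5 (limma adjusted p = 9.54e-05 and 3.13e-06), with no overlap between groups. Mcm7, a helicase subunit, fell by 0.91 in shERK5 and by 0.27 in shMEK5, and Pcna, the sliding clamp, fell by 0.35 in shERK5 and stood at 0.02 in shMEK5 (limma adjusted p = 0.778). In shERK5 against shMEK5, 27 of the 40 fell and 1 rose, where 17.4% of all tested genes fell and 22.0% rose.

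Histone chaperones and replication-independent variants were measured in the same libraries. Of 23 chaperone genes, 13 fell and 1 rose in shERK5 (median -0.34), and 6 fell and 3 rose in shMEK5 (median -0.03). Chaf1b, a subunit of the factor that places H3 and H4 on new DNA, fell by 1.11 in shERK5 and by 0.24 in shMEK5, and Nasp, which carries H3 and H4, fell by 0.46 in shERK5 and stood at -0.03 in shMEK5 (limma adjusted p = 0.701). Of 9 tested variant genes, 5 fell and 1 rose in shERK5 (median -0.18), and 3 fell and 0 rose in shMEK5 (median -0.09). Beside both lists, 31.3% of all tested genes fell and 32.0% rose in shERK5, and 25.6% fell and 23.1% rose in shMEK5. H1f0, the linker histone of non-dividing cells, fell by 0.62 in shERK5 and by 0.19 in shMEK5, and H3f3a, a gene for the variant H3.3, by 0.18 and 0.19.

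**Figure D5:**
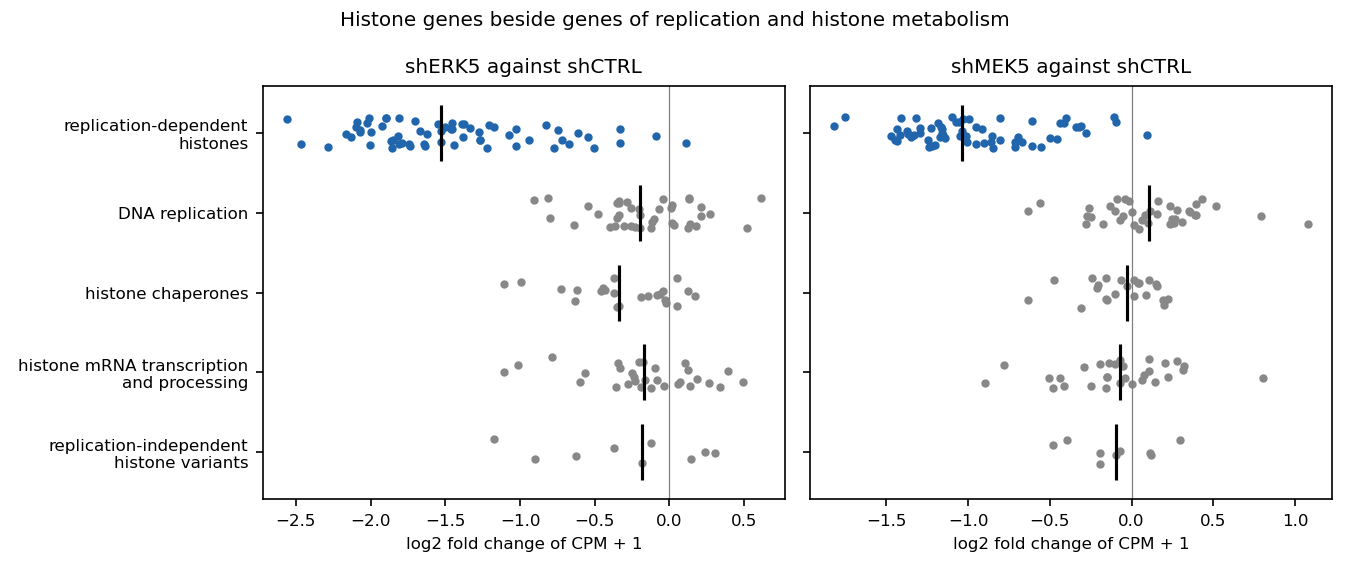
Log2 fold change of CPM + 1 (horizontal axes) of the 64 tested histone genes and of the tested genes of 4 further lists, in shERK5 against shCTRL and shMEK5 against shCTRL. Points are genes and black bars medians. The histone medians were -1.53 and -1.03, and those of the 4 other lists lay between -0.34 and -0.17 in shERK5 and between -0.09 and 0.11 in shMEK5.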

How the data were processed

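The deposited values are CPM, and each column summed to 1000000 over 24454 Entrez-numbered genes. The submitters' processing notes list STAR and mm10. No source used here gives the annotation, the read counter or whether strand was used, so genes overlapping on opposite strands are uncertain. Of the values above 0, 100% corresponded to a whole number of reads, with a tolerance of 0.01 read. A count of 0 allows up to 3 reads, at most 0.0725 CPM, which covers counting error only. Symbols, types and coordinates came from RefSeq GRCm38.p6 and transcripts from GENCODE.

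limma 3.58.1 in R 4.3.3 was fitted to log2(CPM + 1) of all 8 libraries with trend, robust moderation, a mean per group and no covariate. The same fit was also run on simulated data, the outcome of which is not given here. On the recovered reads, the quasi-likelihood test of edgeR 4.0.16 called 7350 genes in shERK5 and 5627 in shMEK5 against shCTRL, and DESeq2 1.42.0 was a further alternative. Libraries of the same group differed beyond sampling noise in every pair (chi-square per degree of freedom 8.22 to 42.5). Named were, per type, the 4 genes with the most reads, the extremes of each comparison, uncalled genes and those sharing reads. From each list up to 4 called genes of lowest adjusted p were eligible, with Slbp, Npat and Casp8ap2. Members, lists and tests were chosen with earlier results of these data known. Mitochondrially encoded genes were not used here.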

Additional observations from a re-analysis of the deposited data

How the results depend on the processing

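The histone genes called lower in shERK5 against shCTRL numbered 60. They numbered between 58 and 61 under other pseudocounts, filters, scalings, models and tests, and between 57 and 62 with each library left out. With genes of identical reads counted once, 57 of 61 were called lower. In shMEK5 against shCTRL they numbered 49, with ranges of 41 to 52 and 34 to 54, the 34 without shMEK5 replicate 2, and 0 were called higher in any of these runs of either comparison. In shERK5 against shMEK5 they numbered 30, with ranges of 25 to 31 and 18 to 33, the 18 without either shMEK5 library. With each library left out, the summed share was 39.7% to 46.3% of shCTRL in shERK5 and 55.3% to 63.3% in shMEK5. Other scalings and choices of genes gave 38.7% to 43.2% in shERK5 and 54.0% to 58.9% in shMEK5. The lowest of these were without H1f2, H1f3 and H1f4, the genes with the highest mean CPM. Same-numbered libraries correlated over all tested genes between -0.19 and 0.52 in their deviations from group means, with 3 of 7 pairs over 0.1. The highest were shERK5 with shMEK5 for replicate 1 (0.46) and replicate 2 (0.52). Pairs of libraries with different numbers correlated between -0.52 and 0.40, with 5 of 14 over 0.1. Deviations from a mean of 2 or 3 libraries depend on each other, so these values cannot decide whether the numbers pair the libraries. With the replicate number as a block the counts were 58, 41 and 25 in the 3 comparisons. Signs turned only in values that had not passed, each with 1 library left out. With each library left out in turn, H4c2 ranged from -0.21 to 0.049 in shERK5 against shCTRL and from -0.027 to 0.23 in shMEK5 against shCTRL. In shERK5 against shMEK5, H2ac10 ranged from -0.65 to 0.017, H2ac20 from -0.34 to 0.013, H2ac23 and H2ac24 from -0.70 to 0.11, H2bc23 and H4bc24 from -0.85 to 0.10, and H2bc4 from -0.57 to 0.39, the highest values being without shMEK5 replicate 1, or for H2ac20 without shERK5 replicate 2. The cause of these shifts was not tested. With 2 shMEK5 libraries and 1 hairpin per target, differences between the knockdowns are the least certain.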

Other observations

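Of the histone pseudogenes that match the older symbols, H2af-ps2 (Hist1h2al) had 283, 157 and 220 CPM in shERK5, 349 and 280 CPM in shMEK5, and 524, 776 and 646 CPM in shCTRL. Both knockdowns lay below shCTRL, while shERK5 replicate 1 was above shMEK5 replicate 2. H2bu1-ps, beside H2aw on chromosome 11, had 1.55, 1.31 and 1.66 CPM in shERK5, 1.67 and 1.87 CPM in shMEK5, and 2.61, 2.39 and 2.17 CPM in shCTRL. Neither entered the counts above, and the assignment of reads shared with coding copies is not stated.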
